A study of Mus musculus with 12 samples.

Results

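The 40 genes described here are a list of mitosis and G2/M genes: CDK1 with its cyclins and phosphatases, the mitotic kinases, the spindle checkpoint, the kinetochore, the spindle, the cytokinesis machinery, the condensins and the factor FOXM1. They were chosen by name, as the entries whose gene symbols include a member, and each member was found on 1 of the 31026 entries of every table. The cells were kidney epithelial cells in culture from C57BL/6 mice, with 3 samples in each of 4 groups. The control genotype was Rosa-CreER alone, a Cre recombinase that works in cells given tamoxifen. JNK-deficient cells carried Jnk1flox/flox Jnk2-/- Rosa-CreER and are labelled Jnk1-/- Jnk2-/-, so that both genotypes hold the transgene, and whether and when tamoxifen was given is not stated in the labels. Each genotype was either attached as a monolayer or suspended for 4 hours, and the study asked what JNK, a stress-activated kinase, does in anoikis, a form of cell death that follows loss of contact with the substrate.

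Cells enter mitosis when CDK1, bound to cyclin A or cyclin B, is activated by CDC25 phosphatases, which remove the phosphates that WEE1 and PKMYT1 put on it. The genes for this machinery are transcribed in a wave late in the cell cycle, under the MuvB complexes with B-MYB and then FOXM1, and are repressed in resting cells by the DREAM form of MuvB. In an epithelial culture their transcripts are carried mainly by the cycling cells. In RNA from whole cultures, fewer cycling cells and less of a transcript per cycling cell cannot be told apart.

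The promoters of the members are shown first because genes of this wave are known for shared elements near their start sites. These are the cell cycle genes homology region, TTTGAA, which MuvB binds, and the CCAAT box, which the factor NF-Y binds. RefSeq promoter windows of 300 bases (250 before to 50 after the start, build GRCm38.p6) were matched by symbol for 32 of the 40 members. Both strands were searched, so TTCAAA and ATTGG count as matches, and neither motif contains the other. Of these promoters, the letters TTTGAA stood in 24 (75%) and CCAAT in 24 (75%). Both stood in 20 (62.5%), and neither in 4. Of the 9638 promoters of genes tested in any table, TTTGAA stood in 11.4%, CCAAT in 38.9% and both in 4.92%. The CCAAT matches had a median position of -80 from the start, counting the first transcribed base as +1, and the TTTGAA matches a median position of -1. The regulators of mitotic entry printed below lie at chr13:100786437-100786736 on the minus strand (Ccnb1, cyclin B1), chr9:70421505-70421804 minus (Ccnb2, cyclin B2), chr10:69352863-69353162 minus (Cdk1), chr7:122159185-122159484 plus (Plk1) and chr4:118437294-118437593 minus (Cdc20, which activates the anaphase-promoting complex). Motif letters are in capitals and the rest is in lower case, 5′ to 3′ along the gene.

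Ccnb1: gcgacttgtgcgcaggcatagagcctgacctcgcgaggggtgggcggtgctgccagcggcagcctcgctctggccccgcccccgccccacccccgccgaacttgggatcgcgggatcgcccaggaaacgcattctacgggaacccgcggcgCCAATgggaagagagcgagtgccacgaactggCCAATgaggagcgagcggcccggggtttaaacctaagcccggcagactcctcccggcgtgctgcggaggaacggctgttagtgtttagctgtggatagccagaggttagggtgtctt

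Ccnb2: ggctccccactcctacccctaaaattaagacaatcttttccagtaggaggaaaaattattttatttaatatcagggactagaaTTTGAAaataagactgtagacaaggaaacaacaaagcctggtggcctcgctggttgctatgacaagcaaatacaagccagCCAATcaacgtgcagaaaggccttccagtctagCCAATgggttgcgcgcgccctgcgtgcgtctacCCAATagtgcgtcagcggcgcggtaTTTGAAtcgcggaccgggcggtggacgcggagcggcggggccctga

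Cdk1: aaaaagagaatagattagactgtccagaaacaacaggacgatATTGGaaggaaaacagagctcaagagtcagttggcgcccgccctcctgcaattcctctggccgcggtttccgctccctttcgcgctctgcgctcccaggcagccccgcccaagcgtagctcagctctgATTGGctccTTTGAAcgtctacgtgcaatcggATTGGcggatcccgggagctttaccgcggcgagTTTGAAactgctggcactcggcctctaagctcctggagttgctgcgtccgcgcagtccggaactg

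Plk1: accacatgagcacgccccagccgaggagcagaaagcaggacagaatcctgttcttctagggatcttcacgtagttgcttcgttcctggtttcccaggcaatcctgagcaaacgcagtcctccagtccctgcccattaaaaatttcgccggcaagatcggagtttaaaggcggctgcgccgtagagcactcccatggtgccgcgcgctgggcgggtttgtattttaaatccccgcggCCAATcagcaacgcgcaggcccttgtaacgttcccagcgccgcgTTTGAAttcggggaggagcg

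Cdc20: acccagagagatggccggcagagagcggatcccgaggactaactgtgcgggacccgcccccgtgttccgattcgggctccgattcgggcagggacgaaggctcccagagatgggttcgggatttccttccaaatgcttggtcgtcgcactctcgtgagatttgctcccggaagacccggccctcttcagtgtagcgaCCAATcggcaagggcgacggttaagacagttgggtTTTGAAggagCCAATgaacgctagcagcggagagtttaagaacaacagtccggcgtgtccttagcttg

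In this window Cdk1 and Ccnb2 held TTTGAA and CCAAT several times each, Cdc20 and Plk1 held both motifs, and Ccnb1 held a pair of CCAAT boxes and no TTTGAA. The 3 members with the largest rises with suspension of JNK-deficient cells, chosen for printing after their values were seen, are set beside them. They lie at chr2:131186698-131186997 plus (Cdc25b), chr17:71526808-71527107 minus (Ndc80) and chr7:80294201-80294500 plus (Prc1). Their windows differed from each other: Cdc25b held CCAAT in reverse and no TTTGAA, Ndc80 held TTTGAA in reverse and no CCAAT, and Prc1 held both.

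Cdc25b: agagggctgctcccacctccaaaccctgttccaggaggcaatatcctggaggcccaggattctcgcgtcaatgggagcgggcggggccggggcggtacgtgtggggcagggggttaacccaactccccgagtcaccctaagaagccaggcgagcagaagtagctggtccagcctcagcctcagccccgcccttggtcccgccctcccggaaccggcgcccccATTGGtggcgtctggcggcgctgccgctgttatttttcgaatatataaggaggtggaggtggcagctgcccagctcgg

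Ndc80: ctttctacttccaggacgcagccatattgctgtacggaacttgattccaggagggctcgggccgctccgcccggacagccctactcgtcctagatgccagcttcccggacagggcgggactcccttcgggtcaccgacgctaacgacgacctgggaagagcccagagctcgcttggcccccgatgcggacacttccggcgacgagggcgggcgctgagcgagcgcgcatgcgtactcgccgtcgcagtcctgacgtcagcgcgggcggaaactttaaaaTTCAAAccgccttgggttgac

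Prc1: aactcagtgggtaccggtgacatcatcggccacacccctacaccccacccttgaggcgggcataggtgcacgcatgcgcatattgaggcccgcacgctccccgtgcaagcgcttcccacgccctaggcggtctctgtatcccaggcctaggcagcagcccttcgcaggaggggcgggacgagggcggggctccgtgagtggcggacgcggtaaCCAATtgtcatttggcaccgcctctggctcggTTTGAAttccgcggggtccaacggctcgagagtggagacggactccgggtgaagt

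Members with and without these letters were set side by side. With suspension of control cells the median log2 fold change was 0.10 in the 24 members with TTTGAA and 0.19 in the 8 without, and 0.18 in the 24 with CCAAT and -0.10 in the 8 without. With suspension of JNK-deficient cells it was 0.28 with and 0.50 without TTTGAA, and 0.29 with and 0.32 without CCAAT. In attached cells the median difference between the genotypes was -0.33 with TTTGAA and -0.34 without, and -0.34 with CCAAT and -0.33 without. These differences were not tested. A match is a description of the sequence, and binding was not measured.

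The deposited tables give 1 FPKM value (fragments per length of transcript, scaled to the library) for each group and no value per sample. The spread between samples therefore lies only inside the authors' p-values and q-values, no SD is given, and the depth is unknown. The targeted genes were lower in the JNK-deficient groups: per the authors' deposited table for attached cells, Mapk8 (JNK1) had 8.76 FPKM in controls against 2.26 FPKM with JNK deficiency, and Mapk9 (JNK2) had 12.8 against 8.89 FPKM. The labels do not say which exons the alleles lack, so a value over the whole gene checks the genotype only in part. A call here is a deposited q-value below 0.05, adjusted over all entries tested. Standard errors (SE) of log2 fold changes were derived from the deposited p-values. They are upper bounds where p was at 5e-05, its smallest step.

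All 40 members were detected in every group and tested in every comparison, and as a group they were neither scarce nor abundant. Their median was 11.8 FPKM in attached control cells per the authors' deposited table, against 12.1 FPKM for all genes tested. The levels ran from 3.34 FPKM for Ttk, a checkpoint kinase, to 57.9 FPKM for Plk1. Below Plk1 came Ube2c, the ubiquitin-conjugating enzyme of the anaphase-promoting complex, at 47.2 FPKM per the authors' deposited table, then Top2a (topoisomerase IIα) at 28.9 and the cytokinesis scaffold Anln at 28.4 FPKM. With 1 value per group, which neighbours in this order differ beyond their spread cannot be given. The Plk1 entry also names Dctn5, a dynactin subunit gene, so its reads cannot be assigned to Plk1 alone. The Anln entry spans other genes, so its level may not be that of Anln alone. The Foxm1 entry also names 4933413G19Rik, and the spans of 11 entries in all hold another coding gene. The widest, that of Cdc25b (chromosome 2, 131127412 to 131604824 on mm10), reached 465864 bases beyond the gene.

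**Figure D1:**
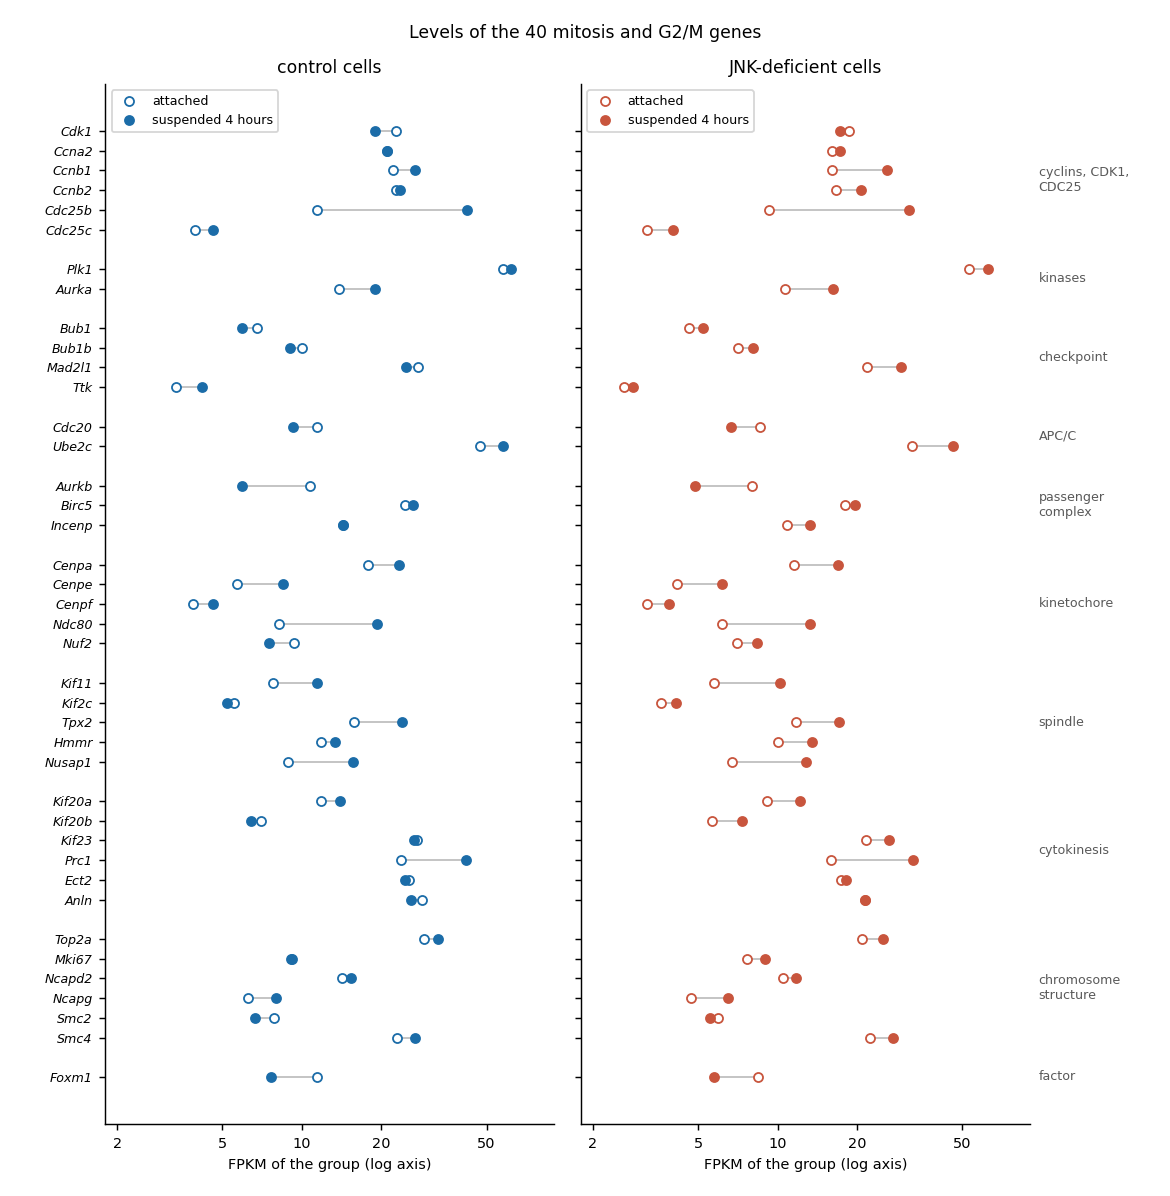
FPKM (log axis) of each of the 40 members in control cells (left, blue) and JNK-deficient cells (right, red), with open circles for attached and filled circles for cells suspended for 4 hours, ordered by role. Each point is the authors' value for a group, and each panel comes from 1 table; the longest gap in both panels is that of Cdc25b, from 11.4 to 42.3 FPKM in control cells.

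Suspension moved some members in each direction and left most without a call. In control cells 11 of the 40 members rose with suspension, 4 fell and 25 were not called, by the q-values of the authors' deposited table. Of all 13386 genes tested, 65.1% were called, 33% higher and 32.1% lower. The members' share, 15 of 40, was thus below that of all genes. In JNK-deficient cells 14 rose, 2 fell and 24 were not called, where of 13136 genes 59.7% were called, 30.6% higher and 29% lower. All 11 members that rose in control cells also rose in JNK-deficient cells, and no member was called in opposite directions.

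Among the regulators of CDK1, the phosphatase gene Cdc25b changed most. Cdc25b was at 11.4 FPKM in attached and 42.3 FPKM in suspended control cells, a 3.72-fold rise (log2 fold change 1.90, standard error at most 0.47, q = 0.000123) per the authors' deposited table. With JNK deficiency Cdc25b was at 9.29 FPKM attached and 31.5 FPKM suspended (log2 fold change 1.76 ± 0.51 SE, q = 0.00145) per the authors' deposited table. Its entry spans 11 other coding genes, and their part in this value was not tested. The related phosphatase gene Cdc25c, at 3.94 and 4.60 FPKM in control cells per the authors' deposited table, was not called (log2 fold change 0.22 ± 0.18 SE, q = 0.272).

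By the deposited calls cyclin B1 transcripts rose in both genotypes and CDK1 transcripts fell in control cells. Ccnb1 went from 22.1 to 26.7 FPKM in control cells per the authors' deposited table (log2 fold change 0.28 ± 0.11 SE, q = 0.0232), a call lost after correction for GC content and length (adjusted p = 0.639). In JNK-deficient cells it went from 16.0 to 25.9 FPKM per the authors' deposited table (log2 fold change 0.69, standard error at most 0.17, q = 0.000144). Between the genotypes, Ccnb1 had 20.7 against 16.0 FPKM in attached and 27.2 against 27.7 FPKM in suspended cells, controls first, per the authors' deposited table of each state. Cdk1 itself went from 22.6 to 18.8 FPKM in control cells per the authors' deposited table (log2 fold change -0.26 ± 0.11 SE, q = 0.0333), and from 18.7 to 17.2 FPKM in JNK-deficient cells (q = 0.493). Ccna2 (cyclin A2) had a log2 fold change of 0.01 in control cells and Ccnb2 one of 0.05 per the authors' deposited table, with no call.

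The kinases of the centrosome and the centromere moved apart. Aurka, the Aurora kinase of the spindle poles, rose from 13.9 to 19.0 FPKM in control cells per the authors' deposited table (log2 fold change 0.45 ± 0.12 SE, q = 0.000565). In JNK-deficient cells Aurka rose from 10.7 to 16.2 FPKM per the authors' deposited table (log2 fold change 0.60 ± 0.18 SE, q = 0.00199). Aurkb, the Aurora kinase of the chromosomal passenger complex, showed the largest fall among the members. It went from 10.7 to 5.90 FPKM in control cells per the authors' deposited table, 1.81-fold lower (log2 fold change -0.86, standard error at most 0.21, q = 0.000123). In JNK-deficient cells Aurkb went from 7.99 to 4.88 FPKM per the authors' deposited table (log2 fold change -0.71 ± 0.22 SE, q = 0.00252). The other passenger subunits among the members had no deposited call in either genotype. After correction for GC content and length, 1 of them was called higher in JNK-deficient cells. Birc5 (survivin) had a log2 fold change of 0.10 ± 0.13 SE and Incenp one of 0.00 in control cells per the authors' deposited table. Plk1, at 57.9 and 61.8 FPKM in control cells per the authors' deposited table, was not called (q = 0.443).

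The spindle checkpoint genes among the members were not called in control cells. These were Bub1 and Ttk, kinases at the kinetochore, Bub1b (BUBR1) and Mad2l1 (MAD2), which hold back CDC20. Their log2 fold changes lay between -0.19 for Bub1 and 0.33 for Ttk in control cells per the authors' deposited table. With JNK deficiency Mad2l1 rose from 21.7 to 29.3 FPKM per the authors' deposited table (log2 fold change 0.43 ± 0.16 SE, q = 0.0161). Of the genes that act on the anaphase-promoting complex, Ube2c rose from 47.2 to 57.7 FPKM in control cells (log2 fold change 0.29 ± 0.12 SE, q = 0.0254) per the authors' deposited table. It rose from 32.4 to 46.1 FPKM in JNK-deficient cells (log2 fold change 0.51 ± 0.17 SE, q = 0.00494) per the authors' deposited table. Cdc20 was at 11.4 and 9.28 FPKM in control cells per the authors' deposited table, without a call (log2 fold change -0.30 ± 0.27 SE, q = 0.327).

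At the kinetochore, partners in 1 complex went in different directions. NDC80 and NUF2 form the microtubule-binding arm of the NDC80 complex. Ndc80 rose from 8.21 to 19.3 FPKM in control cells per the authors' deposited table (log2 fold change 1.23, standard error at most 0.30, q = 0.000123), the second largest rise among the members. In JNK-deficient cells Ndc80 rose from 6.16 to 13.3 FPKM per the authors' deposited table (log2 fold change 1.11, standard error at most 0.27, q = 0.000144). Nuf2 fell from 9.34 to 7.49 FPKM in control cells (log2 fold change -0.32 ± 0.13 SE, q = 0.0252) per the authors' deposited table. With JNK deficiency Nuf2 was at 6.99 and 8.32 FPKM, without a call (q = 0.353), per the authors' deposited table. Cenpa, the histone H3 variant of centromeres, and the kinetochore motor gene Cenpe rose in both genotypes, with log2 fold changes of 0.38 ± 0.12 SE (q = 0.00386) and 0.57 (standard error at most 0.14, q = 0.000123) in control cells per the authors' deposited table. Cenpf had 0.25 ± 0.12 SE there (q = 0.0606).

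Of the 5 spindle genes, 3 rose in both genotypes, where 33% of all genes rose in control and 30.6% in JNK-deficient cells. After correction for GC content and length, 3 were higher in control and 2 in JNK-deficient cells. Nusap1, a microtubule-bundling protein gene, went from 8.82 to 15.5 FPKM in control cells per the authors' deposited table (log2 fold change 0.82, standard error at most 0.20, q = 0.000123). Tpx2, whose product activates Aurora A on the spindle, went from 15.7 to 24.0 FPKM and the bipolar kinesin gene Kif11 from 7.77 to 11.4 FPKM in control cells per the authors' deposited table (both q = 0.000123). In JNK-deficient cells the log2 fold changes were 0.93 for Nusap1, 0.54 for Tpx2 and 0.83 for Kif11 per the authors' deposited table, with q-values from 0.000144 to 0.000275. Kif2c, a microtubule-depolymerising kinesin gene, and Hmmr, a spindle pole protein gene, were not called, at -0.08 ± 0.15 SE and 0.18 ± 0.13 SE in control cells per the authors' deposited table.

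In cytokinesis the change lay with Prc1, which crosslinks the microtubules of the central spindle. Prc1 rose from 23.8 to 41.7 FPKM in control cells (log2 fold change 0.81, standard error at most 0.20, q = 0.000123) per the authors' deposited table. With JNK deficiency Prc1 rose from 16.0 to 32.5 FPKM (2.03-fold, standard error of the log2 value at most 0.25, q = 0.000144) per the authors' deposited table. Ect2, the RhoA exchange factor gene of the cleavage furrow, and Anln were not called, with log2 fold changes of -0.05 ± 0.11 SE and -0.14 ± 0.13 SE in control cells per the authors' deposited table. The kinesin genes Kif20a and Kif23 were not called in either genotype. Kif20b rose in JNK-deficient cells, from 5.63 to 7.36 FPKM (log2 fold change 0.39 ± 0.17 SE, q = 0.043) per the authors' deposited table, and this call was lost once the median shift of all genes was subtracted (adjusted p = 0.0686).

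The 6 genes of chromosome structure carried no call in control cells. They are Top2a, the proliferation marker Mki67, and the condensin subunits Ncapd2, Ncapg, Smc2 and Smc4. Mki67 stood at 9.15 FPKM attached and 9.10 FPKM suspended per the authors' deposited table, a log2 fold change of -0.01 with a 95% interval from -0.21 to 0.19. Top2a went from 28.9 to 32.8 FPKM in control cells per the authors' deposited table (log2 fold change 0.18 ± 0.11 SE, q = 0.12). Smc4 rose in JNK-deficient cells (log2 fold change 0.28 ± 0.13 SE, q = 0.0431) per the authors' deposited table, a call also lost after subtraction of the median shift (adjusted p = 0.0808). Foxm1, which encodes a factor that activates this gene programme, fell in both genotypes while 11 members rose. It went from 11.4 to 7.63 FPKM in control cells (log2 fold change -0.58, standard error at most 0.14, q = 0.000123) per the authors' deposited table. With JNK deficiency Foxm1 went from 8.43 to 5.72 FPKM (log2 fold change -0.56 ± 0.16 SE, q = 0.00145) per the authors' deposited table.

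**Figure D2:**
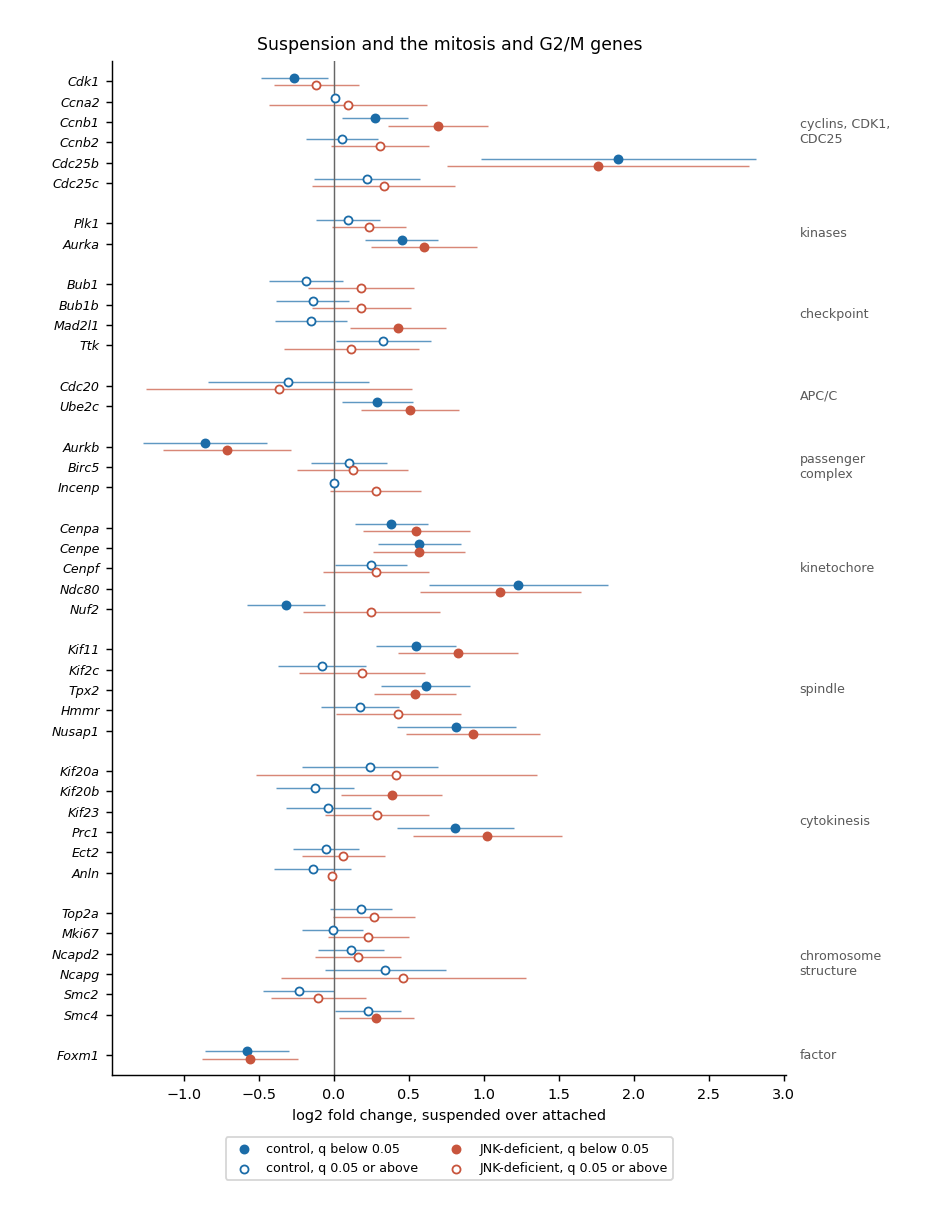
Log2 fold change of each member with suspension (horizontal axis) in control cells (blue) and JNK-deficient cells (red), by role; filled points had a deposited q below 0.05, open points did not, and bars are 95% intervals derived from the deposited p-values (drawn without a bar where p was above 0.95). Cdc25b, Ndc80, Prc1 and Nusap1 lie farthest to the right in control cells, Aurkb and Foxm1 farthest to the left.

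The suspension effects moved with the base composition of the transcripts in all genes, and the members are poor in GC: the median was 45.7% for members against 49.7% for all genes tested. Across all genes the rank correlation of the log2 fold change with GC content was -0.32 for controls and -0.38 for JNK-deficient cells. Once GC content and transcript length were corrected for, 10 members were higher and 10 lower in control cells, in place of 11 and 4, and the median member went from 0.11 to -0.01. Of all genes, 60.2% were called in control cells and 51.5% in JNK-deficient cells after this correction. In JNK-deficient cells 10 were higher and 3 lower after correction, in place of 14 and 2, and the median member went from 0.28 to 0.10. The rises of Cdc25b, Ndc80, Prc1, Nusap1, Kif11, Aurka and Ube2c and the fall of Aurkb stayed called in both genotypes after correction. With standard errors from the authors' p-values, the calls of Cenpa (adjusted p = 0.138 and 0.0859) and Cenpe (0.0861 and 0.239) were lost in control and JNK-deficient cells after correction. By the same errors from the authors' p-values, Ccnb1 (adjusted p = 0.639) lost its call in control cells, and Tpx2 (0.0706), Mad2l1 (0.541) Kif20b (0.604), Smc4 (0.772) and Foxm1 (0.168) lost theirs in JNK-deficient cells. The calls gained in control cells were those of Ncapd2 and Ncapg, higher, and of Anln, Bub1, Kif20b, Mad2l1, Mki67 and Smc2, lower. In JNK-deficient cells 2 higher and 2 lower calls were gained. By role, 1 lower call was among CDK1 and its regulators and 1 higher call in the passenger complex. Genes of chromosome structure held the rest, 1 higher and 1 lower.

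**Figure D3:**
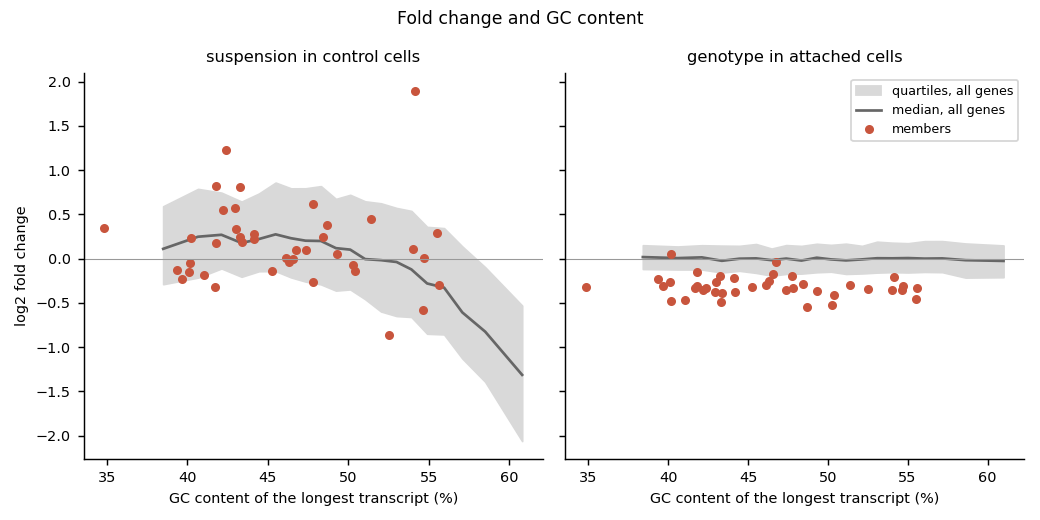
Log2 fold change (vertical axis) against GC content of the longest annotated transcript (horizontal axis, percent) for suspension in control cells (left) and for genotype in attached cells (right). The grey line and band are the median and quartiles of all genes tested in 20 bins of GC content, and red points are the members; the line falls at high GC on the left to -1.31 and stays near 0 on the right, where all members but Smc4 lie below 0.

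In attached cells the members were lower in JNK-deficient than in control cells across nearly every role. By the q-values of the authors' deposited table, 27 of the 40 were lower, 0 were higher and 13 were not called; at an unadjusted p below 0.05 there were 34, and 39 of 40 had a log2 fold change below 0. Of all 12960 genes tested, 28.8% were called, 14.7% higher and 14.1% lower. The median log2 fold change was -0.33 for members and -0.00063 for all genes, and the members ran from -0.54 for Cenpa to 0.05 for Smc4 per the authors' deposited table. The falls were small: the members called lower stood at 68.6% to 83.7% of the attached control level, and none passed a 1.5-fold requirement. The standard errors behind these calls had a median of 0.10.

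All members with a role in the checkpoint or the passenger complex were called lower. All 4 checkpoint genes passed: Bub1 had 6.36 FPKM in controls against 4.59 FPKM with JNK deficiency, and Bub1b had 9.36 against 7.06 FPKM per the authors' deposited table (both q = 0.000347). Mad2l1 had a log2 fold change of -0.26 ± 0.10 SE (q = 0.0262) and Ttk one of -0.27 ± 0.10 SE (q = 0.0319) per the authors' deposited table. All 3 passenger genes passed: Aurkb had -0.34 ± 0.10 SE (q = 0.00503), Birc5 -0.35 ± 0.11 SE (q = 0.00409) and Incenp -0.30 ± 0.09 SE (q = 0.00526) per the authors' deposited table.

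Kinetochore, spindle and cytokinesis genes were lower in most members. At the kinetochore 4 of 5 passed, all but Cenpf. Cenpa went from 16.8 to 11.5 FPKM (log2 fold change -0.54, standard error at most 0.13, q = 0.000347) per the authors' deposited table, the largest difference among the members. Ndc80 and Nuf2, which parted with suspension, were lower by nearly the same amount, with log2 fold changes of -0.33 ± 0.10 SE in both per the authors' deposited table. Of the spindle genes 4 of 5 passed, with Kif2c at 5.17 and 3.59 FPKM (log2 fold change -0.53, standard error at most 0.13, q = 0.000347) per the authors' deposited table, and Hmmr did not (-0.15 ± 0.12 SE, q = 0.375). Of the cytokinesis genes 4 of 6 passed. Prc1 was at 22.3 and 15.9 FPKM and Ect2 at 24.0 and 17.2 FPKM per the authors' deposited table (both q = 0.000347). Kif23 (q = 0.0441) no longer passed after correction for GC content and length, with the error from the authors' p-value (adjusted p = 0.055).

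Of CDK1 and its regulators, 2 of 6 were called lower. Ccnb1 had 20.7 FPKM in controls against 16.0 FPKM with JNK deficiency (log2 fold change -0.38 ± 0.09 SE, q = 0.000347) per the authors' deposited table. Ccnb2 had a log2 fold change of -0.36 ± 0.09 SE (q = 0.000664) per the authors' deposited table. Cdk1 (-0.19 ± 0.09 SE, q = 0.0961), Ccna2 (-0.29 ± 0.13 SE, q = 0.0751), Cdc25b (q = 0.775) and Cdc25c (q = 0.108) were not called per the authors' deposited table. Foxm1 was at 10.7 and 8.39 FPKM (log2 fold change -0.35, standard error at most 0.09, q = 0.000347) per the authors' deposited table. Among the kinases and the anaphase-promoting genes, Aurka (log2 fold change -0.29 ± 0.09 SE, q = 0.00915) and Ube2c (-0.46, standard error at most 0.11, q = 0.000347) were lower per the authors' deposited table. Plk1, the most abundant entry, was not called, with a log2 fold change of -0.04 ± 0.09 SE (q = 0.801) per the authors' deposited table.

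The proliferation markers differed among themselves. Top2a was at 27.2 and 20.8 FPKM (log2 fold change -0.39, standard error at most 0.10, q = 0.000347) per the authors' deposited table, while Mki67 was at 8.60 and 7.62 FPKM without a call (-0.18 ± 0.09 SE, q = 0.129). The condensin genes Ncapd2 (-0.35, standard error at most 0.09, q = 0.000347) and Smc2 (-0.31 ± 0.09 SE, q = 0.0036) were lower per the authors' deposited table, and Ncapg (-0.33 ± 0.16 SE, q = 0.108) was not called. Smc4 was at 21.5 and 22.3 FPKM per the authors' deposited table, the one member above 0 (q = 0.755). Entries that reach more than 10 kb beyond their gene, 6 in all, held 1 of the 27 calls; their median standard error was 0.14, against 0.10 for the other 34 members, of which 26 were called.

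In suspended cells few members were called between the genotypes, and the values were less precise. Of the 40 members only Tpx2 was called, at 24.4 FPKM in controls against 18.2 FPKM with JNK deficiency (log2 fold change -0.43 ± 0.15 SE, q = 0.0466) per the authors' deposited table. No member was called higher, and 7 had an unadjusted p below 0.05. Of all 12795 genes tested, 12.5% were called, 5.57% higher and 6.93% lower. The median log2 fold change was -0.21 for members against 0.01 for all genes, with 31 of 40 below 0, and the median standard error was 0.19, against 0.10 in attached cells. Members without a call were not shown to be equal between the genotypes: Cenpa had -0.40 with a 95% interval from -0.78 to -0.02, and Ndc80 -0.47 with one from -0.84 to -0.09, both from the authors' deposited table (q = 0.187 and 0.0915). The largest of the 9 values above 0 were those of Mad2l1 at 25.2 and 31.1 FPKM (log2 fold change 0.31 ± 0.19 SE, q = 0.334), Kif20b (0.27, q = 0.445) and Nuf2 (0.22, q = 0.692) per the authors' deposited table.

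**Figure D4:**
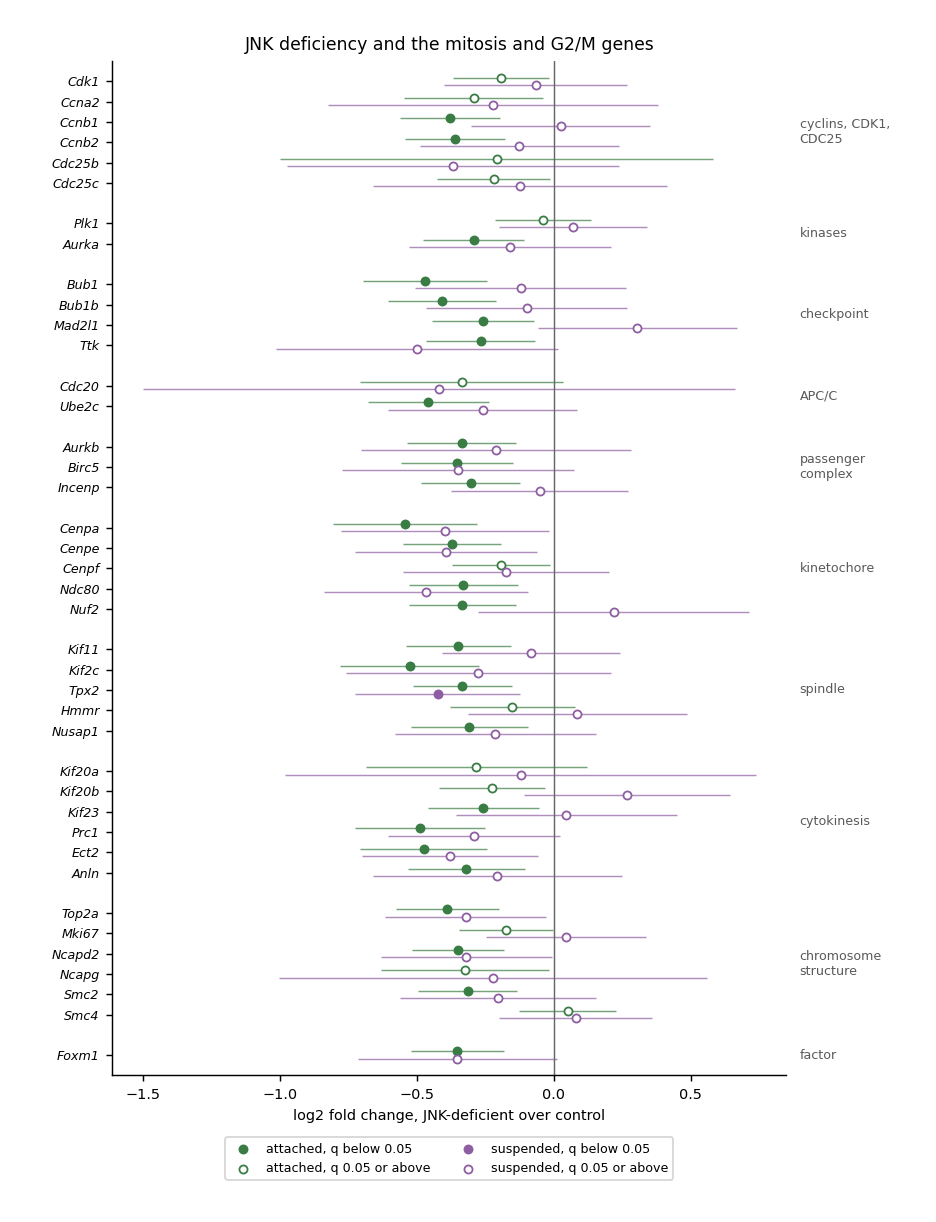
Log2 fold change of each member between JNK-deficient and control cells (horizontal axis) in attached cells (green) and suspended cells (purple), by role; filled points had a deposited q below 0.05, and bars are 95% intervals derived from the deposited p-values. The attached points lie from -0.54 to 0.05 and the suspended points from -0.50 to 0.31, with bars that are longer for most members.

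Whether suspension acted differently in the JNK-deficient cells was tested by subtracting the control suspension effect from the JNK-deficient one, with Benjamini-Hochberg adjustment over 12114 genes. In all, 1.92% of these genes differed, 0.594% with a higher and 1.33% with a lower effect in JNK-deficient cells. No member passed, and 4 had an unadjusted p below 0.05, where 11.6% of all genes did. The smallest adjusted p among the members was 0.136, for Mad2l1, whose difference was 0.58 ± 0.21 SE (log2). Mad2l1 had a log2 fold change of -0.15 in control and 0.43 in JNK-deficient cells per the authors' deposited table. The others, with errors from the authors' p-values, were Nuf2 (difference 0.57 ± 0.27 SE, adjusted p = 0.374), Kif20b (0.51 ± 0.22 SE, adjusted p = 0.279) and Ccnb1 (0.42, standard error at most 0.19, adjusted p = 0.351). The difference was above 0 in 34 of 40 members, against 56.6% of all genes, and its median was 0.14 against 0.05. These values contain the attached genotype difference by construction, since a member lower in attached JNK-deficient cells starts its suspension effect from a lower level.

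Across the 40 members, the suspension effects in control and JNK-deficient cells, which share no sample, had r = 0.93, and r was 0.92 across 12797 genes. The genotype effects in attached and suspended cells had r = 0.48 across the members and 0.62 across 12243 genes. These correlations are across genes of the same libraries and are given as a description.

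**Figure D5:**
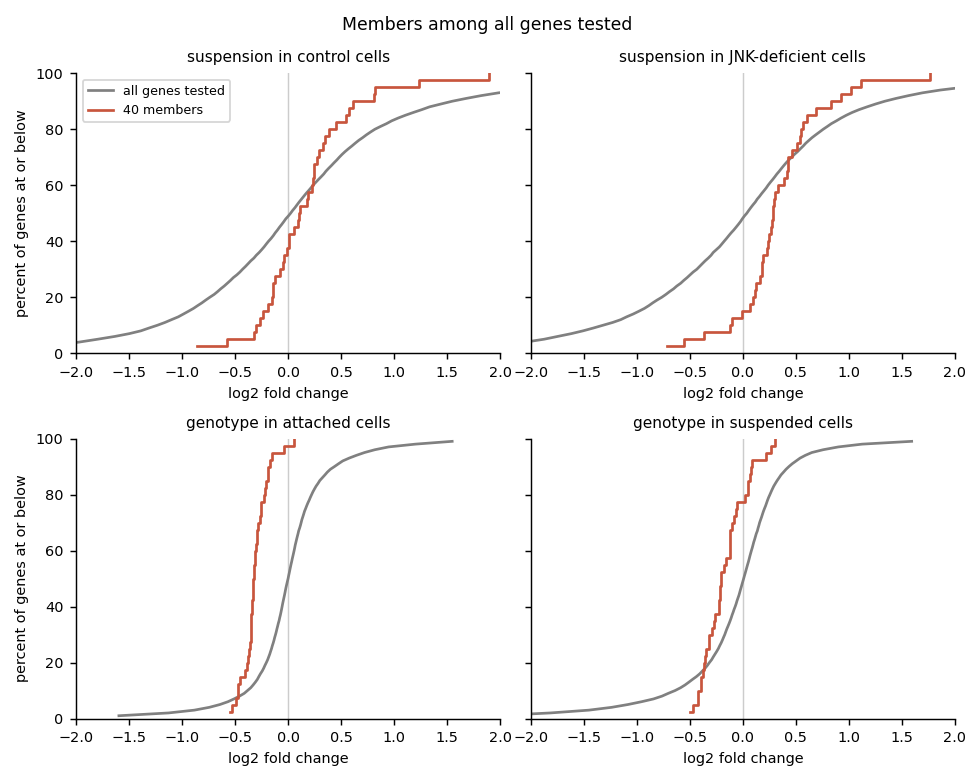
Percent of genes (vertical axis) at or below each log2 fold change (horizontal axis) for the 40 members (red steps) and all genes tested (grey) in the 4 comparisons. The members' steps lie inside the spread of all genes for suspension and, over all but the lowest values, to the left of the grey line for genotype in attached cells, where the medians are -0.33 and near 0; values beyond 2 in either direction lie outside the axis.

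Related genes outside the list were called in both directions with suspension of control cells, where 65.1% of all genes were called. Those called in attached cells were mostly lower in JNK-deficient cells, where 14.7% of all genes were higher and 14.1% lower. Of 23 other mitotic kinases and regulators, 7 rose and 6 fell with suspension of control cells (6 and 6 after correction for GC content and length), and 14 were lower and 0 higher in attached JNK-deficient cells (median log2 fold change -0.32). The inhibitory kinase genes of CDK1 went in opposite directions with suspension of control cells. Wee1 rose from 6.18 to 18.2 FPKM (log2 fold change 1.56, q = 0.000123) and Pkmyt1 fell from 6.24 to 1.88 FPKM (-1.73, q = 0.000123) per the authors' deposited table. Cks1b, encoding a CDK-binding subunit, fell from 130.7 to 52.5 FPKM with suspension of control cells (log2 fold change -1.32, q = 0.000123) per the authors' deposited table. Pttg1 (securin), the inhibitor of the protease that separates sister chromatids, was lower with JNK deficiency whether attached or suspended, at 32.8 and 18.8 FPKM attached and 73.8 and 40.3 FPKM suspended per the authors' deposited table (q = 0.000347 and 0.00099).

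Of 33 other kinetochore and centromere genes, 13 rose and 10 fell with suspension of control cells, and 12 were lower and 1 higher in attached JNK-deficient cells. After correction for GC content and length, 6 rose and 9 fell in control cells, and the median log2 fold change of the list went from 0.14 to -0.08. Hjurp, the chaperone that loads CENPA, rose from 6.47 to 17.3 FPKM with suspension of control cells (log2 fold change 1.42, q = 0.000123) per the authors' deposited table. Spc24, encoding another subunit of the NDC80 complex, fell from 8.58 to 3.70 FPKM (log2 fold change -1.21, q = 0.000123) per the authors' deposited table, as Nuf2 did and against Ndc80. Mad1l1, whose product recruits MAD2 to kinetochores, fell from 14.1 to 5.54 FPKM (-1.34, q = 0.000123) per the authors' deposited table.

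Of 26 other spindle and cytokinesis genes, 5 rose and 6 fell with suspension of control cells (4 and 9 after the same correction), and 14 were lower and 1 higher in attached JNK-deficient cells. Kifc1, the minus-end kinesin gene, fell from 13.6 to 3.86 FPKM with suspension of control cells (log2 fold change -1.82, q = 0.000123) per the authors' deposited table. The one higher in attached JNK-deficient cells was Depdc1b, at 5.02 and 8.07 FPKM (0.69, q = 0.000347) per the authors' deposited table. These 3 lists of related genes had medians of -0.32, -0.24 and -0.29 in attached JNK-deficient cells, in the order given, and -0.33 was the members' median.

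The lists of anaphase-promoting complex genes and of other condensin and cohesin genes held 1 call each between the genotypes in attached cells. Of all genes, 28.8% were called there. The difference between lists was not tested. Of 15 anaphase-promoting complex genes, 1 was lower in attached JNK-deficient cells, Anapc1 (log2 fold change -0.27, q = 0.0493) per the authors' deposited table, and the median was -0.07. Of 13 other condensin and cohesin genes, 1 was lower, Ncapg2 (-0.37, q = 0.00936) per the authors' deposited table, and the median was -0.05. Of 12 genes of the B-MYB-MuvB and DREAM complexes, 3 were lower and 2 higher, 41.7% of the list, with a median of -0.10. Mybl2, which encodes B-MYB, was at 2.66 and 1.97 FPKM (log2 fold change -0.43, q = 0.000664) per the authors' deposited table, and Lin9, a MuvB subunit gene, was at 9.25 and 6.98 FPKM (-0.41, q = 0.000347). With suspension of control cells the anaphase-promoting genes gave 3 rises and 6 falls, the condensin and cohesin genes 2 and 4, and the MuvB genes 5 and 3, where 65.1% of all genes were called. After correction for GC content and length these were 1 and 7, 0 and 4, and 1 and 3. Anapc5 rose from 73.3 to 544.02 FPKM (log2 fold change 2.89, q = 0.000123) per the authors' deposited table, and Fzr1, the coactivator that takes over from CDC20, fell from 28.1 to 8.95 FPKM (-1.65, q = 0.000123). Whether the spans of entries outside the members hold other coding genes was not examined. The values of single related genes outside the members are given without correction for GC content and length.

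The genes of DNA replication and S phase, the phase before, were set beside the members as another group of cell cycle genes. The share of cycling cells was not measured. Between the genotypes in attached cells, 14.1% of all genes tested were lower and 14.7% higher. There 22 of 40 S-phase genes were lower and 0 higher, with a median of -0.31, against 27 lower and -0.33 for the members. With suspension the groups differed in values. In control cells 3 S-phase genes rose and 22 fell with a median of -0.38, against 11, 4 and 0.11 for the members. Of all genes tested there, 33% rose and 32.1% fell. In JNK-deficient cells 4 S-phase genes rose and 11 fell with a median of -0.15, against 14, 2 and 0.28 for the members. The shares of all genes there were 30.6% higher and 29% lower. After correction for GC content and length, the control medians were -0.52 for S-phase genes and -0.01 for members. The difference between these lists was not tested. The promoters parted as well: TTTGAA stood in 4 of 33 S-phase promoters (12.1%) and in 75% of the members', while CCAAT stood in 63.6% and 75%. TTTGAA was also frequent in related lists, at 69.6% for other spindle and cytokinesis genes, 44.8% for other kinetochore and centromere genes and 42.1% for other mitotic kinases and regulators. It stood in 33.3% of the B-MYB-MuvB and DREAM promoters, 20% of the condensin and cohesin ones and 13.3% of the anaphase-promoting complex ones.

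Markers of cell types moved with suspension too. The summed level of 10 epithelial markers went from 4597 to 2642 FPKM in control cells and from 4353 to 2697 FPKM in JNK-deficient cells. Of them, 9 and 8 were lower and 1 higher, where 32.1% and 29% of all genes were called lower. After correction for GC content and length, 3 were lower and 1 higher in control cells and 2 lower and 3 higher in JNK-deficient cells, and the list's median log2 fold change went from -0.76 to -0.11 and from -0.61 to 0.13. Between the genotypes in attached cells the sum was 4321 and 4331 FPKM, with 3 higher and 3 lower. Of all genes tested in that comparison, 14.7% were higher and 14.1% lower. Leukocyte markers, 8 with an entry, summed to 52.4 FPKM in controls and 77.5 FPKM in JNK-deficient cells when attached, with 2 of the 4 tested higher. With suspension they went from 55.7 to 70.1 FPKM in control cells and stood at 77.9 FPKM in both JNK-deficient groups. In both genotypes 3 of the 4 tested, Ptprc, Csf1r and Cd68, rose with suspension and Cd14 fell. Of all genes tested, 33% rose in control and 30.6% in JNK-deficient cells. The common leukocyte antigen gene Ptprc stood at 1.14 and 8.92 FPKM in attached and suspended control cells and at 1.05 and 10.7 FPKM in JNK-deficient cells per the authors' deposited table. With JNK deficiency Csf1r, the gene of a macrophage growth factor receptor, went from 1.47 to 7.97 FPKM, Cd68 from 14.0 to 30.8 FPKM and Cd14 from 61.3 to 28.4 FPKM per the authors' deposited table. In control cells these went from 0.572 to 3.87, from 15.1 to 34.5 and from 38.9 to 22.5 FPKM per the authors' deposited table. Csf1r was higher in JNK-deficient than in control cells both attached and suspended. Fibroblast and endothelial markers summed to at most 3.51 and 2.64 FPKM in any group. At these low levels Pdgfra, the only fibroblast marker tested, rose from 0.0974 to 2.99 FPKM in control cells (q = 0.000123) and from 0.197 to 1.41 FPKM in JNK-deficient cells (q = 0.000144) per the authors' deposited table. Pecam1 and Cdh5 were called higher in suspended control cells, at 0.583 and 0.669 FPKM. Between the suspended groups Pdgfra was lower with JNK deficiency (q = 0.0436), a call lost after correction for GC content and length. The part of these cell types in the members' values was not tested.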

How the data were processed

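RNA from 12 samples of cultured mouse kidney epithelial cells, 3 in each of 4 groups, was sequenced on an Illumina HiSeq instrument after messenger RNA purification, per the labels' protocols. TopHat, Bowtie, Cuffdiff and Cufflinks 1.0.3 are named in the submitters' processing notes, with build mm10. Their roles and settings are not given in the sources used. The authors deposited 4 tables of 31026 entries, each with 1 FPKM value per group, a log2 ratio, a p-value in steps of 5e-05 and a q-value for each entry. The deposited q-values match a Benjamini-Hochberg adjustment of the tested entries. The labels call the samples separate but name no separate cultures or animals, so that the spread behind the p-values may be technical. FPKM of the same group was not scaled alike in the deposited tables (by up to -0.0895 as log2), so levels are compared within a table. Locus starts in the tables count from 0, and 1 was added.

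The members and gene lists were chosen with earlier results of these data known. All 40 members are named, and of the other lists up to 3 genes with the largest change past the threshold and at least 1 FPKM in the higher group. A few genes of these lists are given in 1 comparison only. The standard error of a log2 fold change was its size over the normal quantile of the deposited two-sided p, for p up to 0.95. The difference of suspension effects was a z-test with standard errors taken through the suspension and the genotype tables, adjusted by Benjamini-Hochberg over all genes. Both it and the correction for GC content and length (splines on the longest GENCODE transcript of each gene, the median kept) were tested on simulated data. GC content and length were found for 88.0% of the entries tested. The calculations used Python 3.11.15 with numpy 2.4.6, pandas 2.3.3 and SciPy 1.17.1. Alternatives were a q-value of 0.01, at least 1 FPKM, at least a 1.5-fold change, subtraction of the median, a pseudocount of 1 FPKM, the GC and length correction and other standard errors. Leaving out members whose entry holds another gene was added after seeing the data. Marker lists of epithelial, leukocyte, fibroblast and endothelial cells were counted the same way.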

Additional observations from a re-analysis of the deposited data

How the results depend on the processing

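No paired analysis was possible because the tables hold 1 value per group and none per sample, and leaving out a sample was not possible for the same reason. At a q-value of 0.01, 9 members rose and 2 fell with suspension of control cells, where 7527 of 13386 genes were called in all. Between the suspended groups 0 members were lower with JNK deficiency, where 969 genes were called in all. With a 1.5-fold change required as well, 5 members rose and 1 fell in control cells, where 6072 of 13386 genes were called in all. In JNK-deficient cells 7 members rose and 1 fell, where 5718 of 13136 genes were called. In attached or suspended JNK-deficient cells 0 members were lower, while 1408 genes were called between the attached and 1125 between the suspended groups. The requirement itself removes small changes. After correction for GC content and length, 10 members fell with suspension of control cells and their median was -0.0061. Of all genes, 3296 of 11628 fell there after the same correction. Between the suspended groups, 3 members were lower with JNK deficiency after correction (Ect2, Ndc80 and Tpx2), where 776 of 10893 genes were lower. The cause was not tested. Without the 11 members whose entry holds another gene, 1 fell with suspension of JNK-deficient cells, since the Foxm1 entry is one of them, and 23 were lower in attached JNK-deficient cells. With standard errors from the suspension tables only, 101 genes differed in their suspension effect, and no member. A minimum of 1 FPKM removed no member, and with p-values adjusted again no member's call changed; the log2(FPKM + 1) scale keeps the deposited q-values and so could not change a call. Subtraction of the median removed 2 calls among 200 single values (Kif20b and Smc4 with suspension of JNK-deficient cells) and changed the sign of 5. The unknown depth and the missing values per sample limit every value: the standard errors rest on the authors' p-values alone, and where p was at its smallest step they are bounds.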
